A study of Homo sapiens with 24 samples.

Results

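The 4 HOX gene clusters of the human genome were described in OG-seq data of HAP1 cells, a near-haploid line derived from a human leukemia. OG-seq binds biotin to 8-oxoguanine (OG), the most common oxidized DNA base, pulls the labelled fragments down on streptavidin and sequences them beside input DNA. The members were all 1 kb bins of the deposited table that start inside 4 fixed ranges of GRCh38. There were 580 members among 2835235 bins: 125 of HOXA on chromosome 7, 215 of HOXB on chromosome 17, 130 of HOXC on chromosome 12 and 110 of HOXD on chromosome 2. No bin of the ranges was missing and none was at 0 in all columns. The 4 genotypes were unedited cells (WT), cells with a CRISPR-Cas9 knockout of MUTYH (MUTYH-/), cells with a knockout of OGG1 (OGG1-/) and cells with both knockouts (DKO). No treatment was named in the labels of these samples. Each genotype came as 2 clones and has 3 columns in the table (12 columns in all), so at least 2 columns of a genotype share a clone. The study lists the same OGG1-/ clone as parent of both DKO clones. Lineage and genotype therefore cannot be told apart, also in the comparisons by glycosylase status below. Which clone or experiment a column comes from is not known here, and the p-values measure the spread between columns only.

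OGG1 is the glycosylase that cuts OG out of DNA where it faces a cytosine, and MUTYH removes an adenine that was placed opposite OG during replication. HOX genes encode homeobox transcription factors that lay out the body axis of the embryo. Their order along the chromosome follows their order of use from head to tail, a property called collinearity. The clusters are compact, rich in CpG islands and poor in repeats, and in many cells they are held silent by Polycomb proteins.

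That composition was visible in the bins. The mean GC content was 51.5 % in HOXA, 49.3 % in HOXB, 52.2 % in HOXC and 51.4 % in HOXD, against 40.9 % over all bins. A CpG island covered at least 200 bp in 307 of the 580 bins (52.9 %), compared to 11.4 % of all bins. A G4 motif, 4 runs of 3 or more G set apart by 1 to 7 bases N on either strand, was found in 40.9 % of the HOX bins and in 9.7 % of all bins.

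The sequences below come from the reference genome, GRCh38, and lie in the highest and the lowest bin of the clusters. The first is the 200 bases with the most CpG in a coding exon of HOXB1 (chr17:48530657-48530856, minus strand), in the highest HOX bin. The second is the middle 200 bases of the lowest HOX bin, inside the long non-coding gene LINC02086 (chr17:48697401-48697600, plus strand). CpG dinucleotides are in capitals: the stretches hold 17 and 2 of them. As the first stretch was picked for its CpG, these counts do not compare the bins. Not every high bin was like it: a bin over a HOXD3 coding exon (level 2.70) held no CpG island.
HOXB1 exon: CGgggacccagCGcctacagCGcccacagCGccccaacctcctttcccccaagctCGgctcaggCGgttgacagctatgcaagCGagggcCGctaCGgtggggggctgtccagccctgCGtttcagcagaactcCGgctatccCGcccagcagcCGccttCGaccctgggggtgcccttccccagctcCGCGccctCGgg
LINC02086: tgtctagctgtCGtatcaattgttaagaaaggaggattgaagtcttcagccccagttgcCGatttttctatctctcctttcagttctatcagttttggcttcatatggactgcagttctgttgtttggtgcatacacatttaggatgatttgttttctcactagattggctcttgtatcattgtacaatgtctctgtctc

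The next 4 sequences are G4 motifs in introns, shown because the bins that hold them were not high. The HOXD11 motifs (chr2:176108408-176108422 and chr2:176108839-176108853, plus strand) lie in one of the 3 lowest HOXD bins, with 3 motifs. The HOXB3 motifs (chr17:48555663-48555687, minus strand, and chr17:48555789-48555809, plus strand) lie in a bin with 4 motifs that is described further on. Runs of G are in capitals.
HOXD11 motif 2: GGGaGGGaGGGaGGG
HOXD11 motif 3: GGGcGGGcGGGcGGG
HOXB3 motif 3: GGGGcGGGGGcGGGGGGGcGGGGGG
HOXB3 motif 4: GGGaGGGGGtGGGGGagcGGG

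A deposited value is the number of OG reads of a bin left after scaled input reads were subtracted, and it can be below 0. Each column was divided by its mean over all bins, so that 1 is the genome average of the column. The quotient is called the level here. OG and input reads could be recovered from the values as whole numbers, and amounted to between 59601849 and 113915679 OG reads per column. Input reads numbered between 78621690 and 101608128. A bin therefore held on average 21 to 40.2 OG reads. Counting error alone gave the level of a whole cluster a standard error of 0.0535 to 0.0847.

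All 4 clusters lay above the genome average. The level over the 12 columns was 1.38 ± 0.262 (SD) in HOXA, 1.31 ± 0.130 in HOXB, 1.37 ± 0.186 in HOXC and 1.28 ± 0.230 in HOXD. Among genome windows of the same length, the clusters stood at percentiles 87.0, 83.8, 86.2 and 81.3. Of the 580 HOX bins, 440 (75.9 %) had a mean level above 1, compared to 47.5 % of all bins. Above 1 in every column were 2 of the 580 HOX bins, both in HOXB, and 7715 of all 2835235 bins. Single bins were poorly repeatable: the mean correlation between columns of the same genotype over the 580 bins was 0.032, as a description.

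The rule compares each cluster with the 500 kb on either side. HOXD lay above its flanks in 12 of 12 columns (1.28 against 0.893, a difference of 0.388), with an exact sign-flip p = 0.000488, the smallest that 12 columns allow. HOXA lay above its flanks in 10 of 12 columns (1.38 against 1.04, a difference of 0.345, exact sign-flip p = 0.00342). Both differences are large for the genome, at percentiles 98.98 and 98.5 of windows of the same length. HOXB (1.31 against 1.37, a difference of -0.053, exact permutation p = 0.128) and HOXC (1.37 against 1.39, a difference of -0.0229, exact permutation p = 0.633) were each above their flanks in only 4 of 12 columns. HOXB passed the test below its flanks with flanks of 1000 kb (-0.0994, exact permutation p = 0.00586) and with values below 0 set to 0 (-0.0506, exact permutation p = 0.0474). In the genome, 22.2 % of windows as long as HOXD and 23.1 % of windows as long as HOXA were above their flanks at an exact p under 0.05. For the lengths of HOXB and HOXC the shares were 25.8 % and 22.8 %. Adjusted over all windows by Benjamini-Hochberg, the exact permutation p was 0.00469 for HOXD and 0.0144 for HOXA.

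The flanks of the 4 clusters differ in composition. The flanks of HOXA and HOXD had a GC content of 39.9 % and 38.96 %, and those of HOXB and HOXC 44.6 % and 46.0 %. When each bin was set against all genome bins of the same GC content in the same column, the direction of both differences turned. HOXD minus its flanks became -0.131 (exact permutation p = 0.0708) and HOXA minus its flanks -0.127 (exact permutation p = 0.0864). On that scale HOXB was -0.240 (exact permutation p = 0.000488) and HOXC -0.247 (exact permutation p = 0.00147) relative to their flanks. Taken as a ratio of OG to input reads, the difference stayed positive for HOXD (0.120, exact permutation p = 0.000488) and HOXA (0.0898, exact permutation p = 0.00244). On that ratio HOXC turned to above its flanks (0.0368, exact permutation p = 0.0303), and HOXB was at 0.0055 (exact permutation p = 0.574). Without their neighbors, the clusters were on average 0.0552 (HOXA), 0.103 (HOXB), 0.156 (HOXC) and 0.155 (HOXD) below the level of genome bins of the same GC content.

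**Figure D1:**
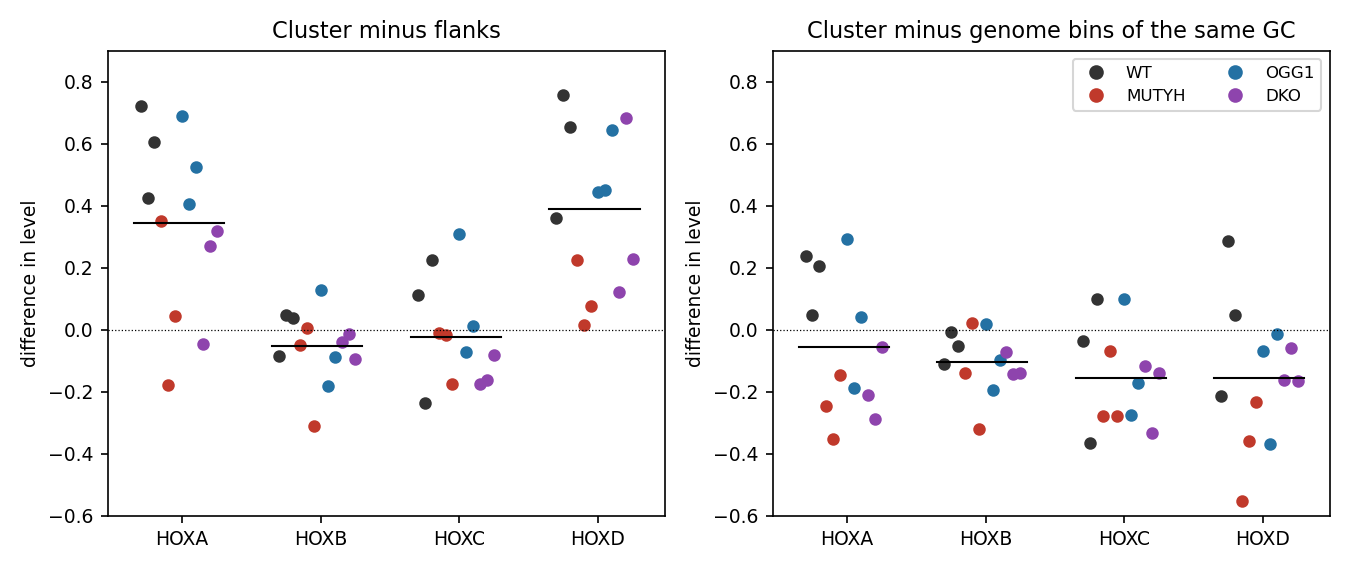
Difference in level (y axis, genome average of a column = 1) of each cluster to its 500 kb flanks (left) and to genome bins of the same GC content (right). Points are the 12 columns colored by genotype and lines are their means, which are 0.345 for HOXA and 0.388 for HOXD on the left and below 0 for all 4 clusters on the right.

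In HOXA, the columns without MUTYH were the lower ones. Its level was 1.69, 1.45 and 1.65 in the WT columns and 1.76, 1.43 and 1.56 in OGG1-/. It was 1.37, 0.936 and 1.19 in MUTYH-/ and 0.985, 1.28 and 1.31 in DKO. All columns of MUTYH-/ and DKO were lower than all columns of WT and OGG1-/. Relative to WT (1.59 ± 0.130, n = 3), the level differed by -0.428 in MUTYH-/ and by -0.402 in DKO, each with an exact permutation p = 0.1, the smallest that 3 against 3 columns allow. In OGG1-/ the difference was -0.0123 (exact permutation p = 0.9). Among genome windows of this length, 3.91 % had all MUTYH-/ columns below all WT columns and 4.14 % had all DKO columns below them.

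The HOXD columns of MUTYH-/ were also all below those of WT. The level was 1.24, 1.68 and 1.49 in WT, 1.06, 0.931 and 1.10 in MUTYH-/, 1.39, 1.24 and 1.496 in OGG1-/ and 1.04, 1.502 and 1.20 in DKO. MUTYH-/ differed from WT by -0.437 (exact permutation p = 0.1, smallest possible), a separation that 3.93 % of windows of this length showed. The columns of OGG1-/ (-0.0895, exact permutation p = 0.7) and DKO (-0.218, exact permutation p = 0.3) overlapped with WT.

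In HOXB, the 3 OGG1-/ columns (1.45, 1.38 and 1.37) were just above the 3 WT columns (1.31, 1.35 and 1.35), by 0.0661 (exact permutation p = 0.1, smallest possible), as in 6.14 % of windows of this length. The MUTYH-/ columns were at 1.44, 1.32 and 0.991 and the DKO columns at 1.17, 1.397 and 1.22, and both overlapped with WT (exact permutation p = 0.8 and 0.4). In HOXC, the level was 1.498, 1.10 and 1.62 in WT, 1.46, 1.28 and 1.12 in MUTYH-/, 1.65, 1.46 and 1.43 in OGG1-/ and 1.14, 1.34 and 1.304 in DKO. Of the other columns, a single one of OGG1-/ (1.65) lay outside the range of WT. The differences from WT there were -0.118 in MUTYH-/, 0.111 in OGG1-/ and -0.144 in DKO (exact permutation p = 0.6, 0.8 and 0.5). In all, 12 comparisons of a knockout with WT were made.

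**Figure D2:**
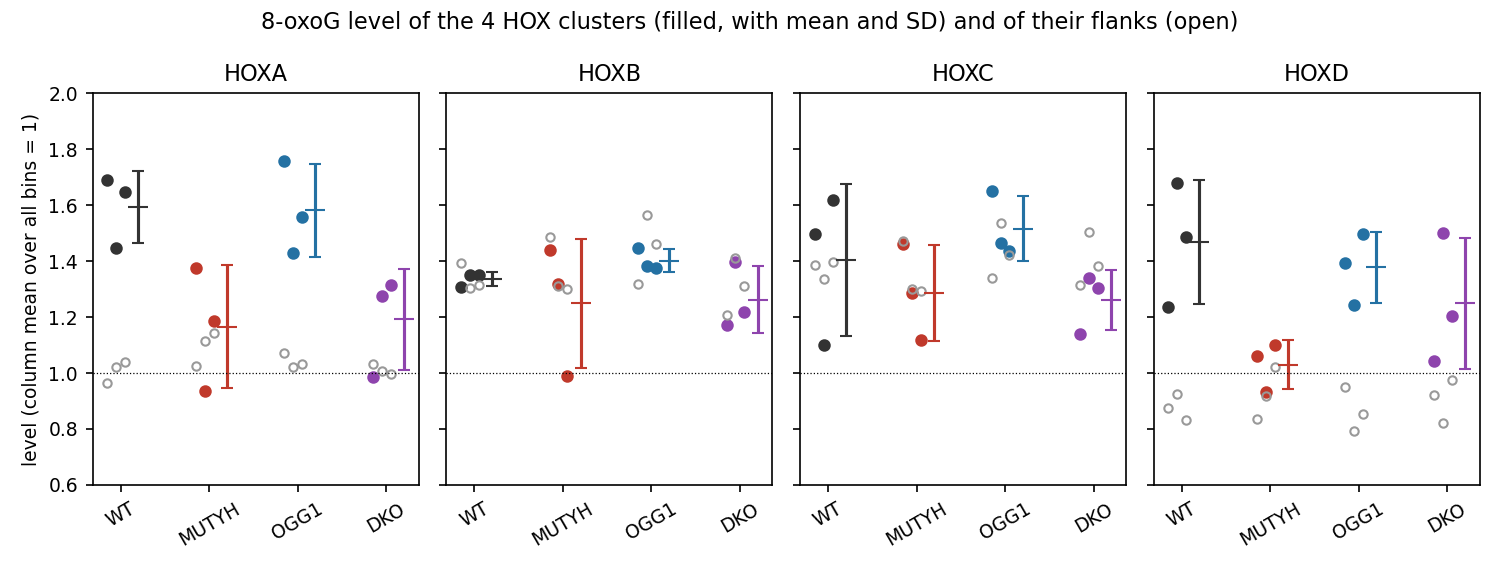
Level (y axis, genome average of a column = 1) of the 4 HOX clusters by genotype. Filled points are the 3 columns of a genotype with their mean and SD beside them, and open points are the 500 kb flanks in the same columns. In HOXA, WT and OGG1-/ columns lie between 1.43 and 1.76 and MUTYH-/ and DKO columns between 0.936 and 1.37.

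The comparison by glycosylase status set the 6 columns that lack MUTYH (MUTYH-/ and DKO) against the 6 that carry it, permuted within OGG1 status. In HOXA the level was 1.18 ± 0.180 in the 6 MUTYH-lacking columns (lowest 0.936, median 1.23, highest 1.37) and 1.59 ± 0.134 in the 6 MUTYH-bearing columns (lowest 1.43, median 1.60, highest 1.76). The groups did not overlap. The difference was -0.409 (exact permutation p = 0.005, the smallest possible). All 6 columns below all 6 was seen in 0.0488 % of windows of this length (11 of 22546), and 1.65 % of the windows were lower in MUTYH-lacking columns at an exact p under 0.05. The difference of HOXA stood at percentile 0.0665 of the windows. Of 22547 windows, HOXA included, 888 had an exact p under 0.05 in either direction, and the exact permutation p adjusted over all windows was 1. The exact p cannot go below 0.005, so this adjustment could pass only with far more such windows. It therefore decides nothing on HOXA. Leaving out any single column kept the difference between -0.461 and -0.352 (exact permutation p from 0.005 to 0.01).

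In HOXD the 6 MUTYH-lacking columns had a level of 1.14 ± 0.198 (lowest 0.931, median 1.08, highest 1.502) and the 6 MUTYH-bearing columns of 1.42 ± 0.169 (lowest 1.24, median 1.44, highest 1.68). These ranges overlapped. The difference was -0.283 (exact permutation p = 0.035, adjusted over all windows 1, with the limit given for HOXA). Of windows of this length, 1.66 % were lower at an exact p under 0.05. The HOXD difference lost the call in 8 of the 12 cases in which a single column was left out (-0.346 to -0.230 over the 12 cases, exact permutation p from 0.01 to 0.08). HOXC (-0.187, exact permutation p = 0.11) and HOXB (-0.114, exact permutation p = 0.15) did not pass the test. Loss of OGG1 gave smaller differences: 0.0067 in HOXA, 0.0396 in HOXB, 0.0425 in HOXC and 0.0646 in HOXD (exact permutation p = 0.945, 0.635, 0.665 and 0.59). These were 8 comparisons by status. Whether the effect of MUTYH loss depended on OGG1 was tested as an interaction, which gave exact permutation p = 0.84, 0.77, 0.565 and 0.18 for HOXA, HOXB, HOXC and HOXD.

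The flanks of HOXA showed no such split. Their level was 1.05 ± 0.061 in MUTYH-lacking and 1.02 ± 0.034 in MUTYH-bearing columns, with overlapping ranges (0.995 to 1.14 and 0.966 to 1.07). HOXA minus flanks was 0.585 in WT and 0.541 in OGG1-/, but 0.0721 in MUTYH-/ and 0.181 in DKO. All 3 columns of MUTYH-/ (-0.513 relative to WT) and of DKO (-0.404) were below all WT columns, each with an exact permutation p = 0.1. For HOXD, it was 0.591 in WT and 0.105 in MUTYH-/ (-0.485, exact permutation p = 0.1), with no overlap. In OGG1-/ (0.513, -0.0777 relative to WT, exact permutation p = 0.6) and DKO (0.343, -0.248 relative to WT, exact permutation p = 0.3) the columns overlapped with WT.

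Both OG and input reads at HOXA had a lower mean in MUTYH-lacking columns, which was not tested. Relative to the mean of their column, OG reads at HOXA were 1.26 in MUTYH-bearing columns and 1.05 in MUTYH-lacking columns. Input reads were 1.13 (1.04 to 1.21) and 1.01 (0.951 to 1.05), with ranges that overlapped slightly. By genotype, input reads were 1.18 in WT, 1.08 in OGG1-/, 1.04 in MUTYH-/ and 0.979 in DKO. The OGG1-/ columns (1.044 to 1.103) were all below the WT columns (1.145 to 1.208), so lower input was not particular to MUTYH-lacking columns. The ratio of OG to input reads was 1.11 (1.07 to 1.15) in MUTYH-bearing and 1.04 (0.972 to 1.10) in MUTYH-lacking columns, and these ranges overlapped. The difference on that scale was -0.0731 (exact permutation p = 0.02). With genome bins of the same GC content subtracted, the HOXA difference was -0.322 (exact permutation p = 0.01) and the HOXD difference -0.201 (exact permutation p = 0.15).

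The lower level in MUTYH-lacking columns was spread over the cluster. Of the 125 HOXA bins, 90 (72.0 %) had a lower mean in MUTYH-lacking columns, with a median difference of -0.474. The counts were 126 of 215 (58.6 %) in HOXB, 78 of 130 (60 %) in HOXC and 74 of 110 (67.3 %) in HOXD. Together 368 of the 580 bins were lower, or 63.4 %, compared to 49.3 % of all bins. No HOX bin had all 6 MUTYH-lacking columns below all 6 MUTYH-bearing columns, which 0.107 % of all bins had. For loss of OGG1, 275 of the 580 bins (47.4 %) were lower, against 49.6 % of all bins.

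**Figure D3:**
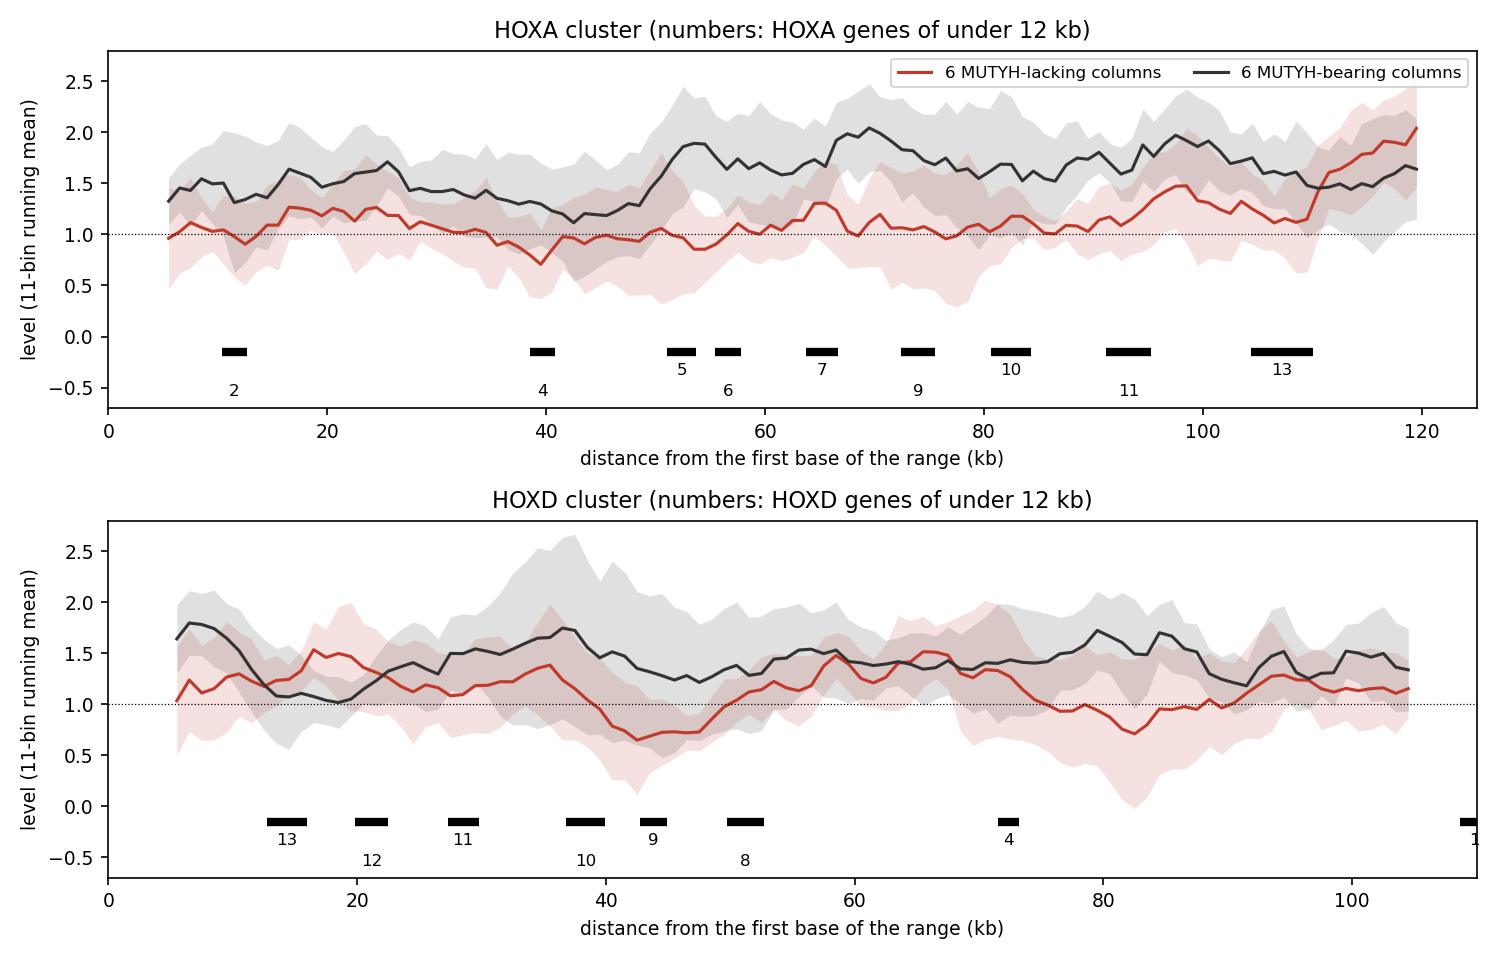
Level (y axis, running mean of 11 bins) along HOXA and HOXD by distance from the first base of the range (x axis, kb). Lines are means over the 6 MUTYH-lacking and the 6 MUTYH-bearing columns, bands are 1 SD, and black bars are HOX genes. In HOXA the MUTYH-lacking mean is the lower one up to the end of the range, past HOXA13, where the order turns, while in HOXD the lines cross several times.

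The 39 HOX genes were each measured over the bins that their canonical transcript overlaps. The bins of HOXA4, HOXA5 and HOXA6 therefore also count for HOXA3, and those of HOXB4 for HOXB3. By paralog group, which sorts the genes by their place along the body axis, the mean level was 1.27 ± 0.297 (SD over 12 columns) for the 12 anterior genes of groups 1 to 4, 1.22 ± 0.304 for the 11 central genes of groups 5 to 8 and 1.26 ± 0.278 for the 16 posterior genes of groups 9 to 13. These differed by less than the spread between columns. The anterior genes stood at 1.42 ± 0.079 in WT, 1.52 ± 0.128 in OGG1-/, 0.966 ± 0.245 in MUTYH-/ and 1.18 ± 0.356 in DKO (n = 3 each). The central genes stood at 1.42 ± 0.437, 1.33 ± 0.167, 1.15 ± 0.227 and 0.991 ± 0.275 in the same order. The posterior genes stood at 1.47 ± 0.290, 1.39 ± 0.352, 1.12 ± 0.173 and 1.06 ± 0.065. In each class the means of MUTYH-/ and DKO were below those of WT and OGG1-/, which was not tested.

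Of the 39 genes, 30 had a lower mean in MUTYH-lacking columns, with a median difference of -0.350. The count was 10 of 11 in HOXA, 7 of 10 in HOXB, 6 of 9 in HOXC and 7 of 9 in HOXD, and the median differences were -0.890, -0.236, -0.0586 and -0.367. Among genome windows of 4 kb, the median size of the genes in bins, 49.2 % had a lower mean. Genes of a cluster are neighbors in the same columns, and HOXA3 and HOXB3 also hold the bins of genes inside them. These counts therefore describe the clusters and add no test.

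HOXA7, a central gene that acts in the trunk, had the clearest split and was picked out after its values were seen. Its level was 2.17, 1.43 and 2.302 in WT, 1.77, 1.98 and 1.68 in OGG1-/, 0.762, 1.34 and 0.184 in MUTYH-/ and 0.519, 1.13 and 0.799 in DKO. It was the only one of the 39 genes in which all 6 MUTYH-lacking columns were below all 6 MUTYH-bearing columns, which 0.11 % of genome windows of 4 kb showed. The means were 0.790 ± 0.416 and 1.89 ± 0.325.

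A pair of HOXA genes whose ranges overlapped little was likewise picked after the values were seen. HOXA3, which covers 46 bins and acts in the throat and thymus, was at 1.04 ± 0.236 in MUTYH-lacking and 1.48 ± 0.151 in MUTYH-bearing columns, and its ranges overlapped (highest 1.295 and lowest 1.28). Its bins include those of HOXA4, HOXA5 and HOXA6. HOXA11, a gene of the forearm and uterus, was at 1.10 ± 0.251 and 1.99 ± 0.564, with ranges of 0.711 to 1.396 and 1.17 to 2.78.

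HOXC13, which acts in hair and nails, had another order, noticed in the values. It was at 1.89, 1.88 and 1.89 in WT, above all columns of MUTYH-/ (0.767, 1.21 and 0.683), OGG1-/ (1.47, 1.38 and 0.664) and DKO (1.24, 0.870 and 0.911). By MUTYH status it did not split, as the range of the MUTYH-lacking columns (0.683 to 1.24) lay inside that of the MUTYH-bearing columns (0.664 to 1.89). HOXC13 was noticed among 39 genes. How often genome windows of its length have all WT columns above all knockout columns was not counted, so its order shows no trait of the gene.

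The opposite order was seen in 9 genes. The difference reached 0.620 in HOXC5, which was at 1.73 ± 0.445 in MUTYH-lacking and 1.11 ± 0.723 in MUTYH-bearing columns. The ranges of these columns overlapped (1.32 to 2.45 and 0.0382 to 2.102).

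The bin that holds the start of a gene was measured as well. Among the highest means over 12 columns were those of the start bins of HOXA11 (2.01) and HOXB13, a gene of the tail end and prostate (1.95). Those of HOXA4 (0.584), HOXD11 (0.641) and HOXB5 (0.685) had the lowest. The SD over columns of these single bins was 0.692 to 1.58, so that their order is not resolved.

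HOXA6 was the HOXA gene with the highest level over 12 columns (1.76 ± 1.05) and its neighbor HOXA5, which acts in lung development, the one with the lowest (1.04 ± 1.08). HOXA5 was at 1.74, 1.95 and 2.69 in WT, -0.670, 2.01 and 0.915 in MUTYH-/, 1.71, 1.26 and 0.262 in OGG1-/ and -0.872, 0.840 and 0.622 in DKO. All 3 DKO columns and all 3 OGG1-/ columns were below the lowest WT column, while 1 MUTYH-/ column lay within the WT range. The highest OGG1-/ column (1.71) was just below the lowest WT column (1.74). How often genome windows of this length show such an order was not counted and the order was not tested, so it shows no trait of HOXA5. HOXA6 ranged from 0.0153 to 3.40 over the 12 columns with overlap between all genotypes.

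In HOXB, HOXB1, which marks a segment of the hindbrain, was highest (1.98 ± 0.656) and HOXB4, known for its use in expanding blood stem cells, lowest (0.940 ± 0.557). HOXB1 was above 1 in 11 of 12 columns: 2.42, 2.06 and 1.32 in WT, 3.07, 1.85 and 1.39 in MUTYH-/, 2.69, 1.93 and 2.72 in OGG1-/ and 0.818, 1.83 and 1.64 in DKO. HOXB4 ranged from 0.147 to 1.64. HOXB3, one of the longest HOX genes with 43 bins, was above 1 in all 12 columns (1.04 to 1.55).

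In HOXC, HOXC12 was highest (1.52 ± 0.810) and HOXC6, a central gene used in the thorax, lowest (0.866 ± 0.995). Over the columns HOXC12 ranged from 0.609 to 3.16 and HOXC6 from -0.942 to 2.39. In HOXD, HOXD12 was highest (1.73 ± 0.730) and HOXD11, a gene of the forearm, lowest (0.719 ± 0.567). HOXD11 was at 1.30, 1.51 and 0.223 in WT, 0.678, 0.229 and 0.871 in MUTYH-/, 1.75, 0.839 and 0.559 in OGG1-/ and 0.355, -0.174 and 0.501 in DKO, and these genotypes overlapped.

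**Figure D4:**
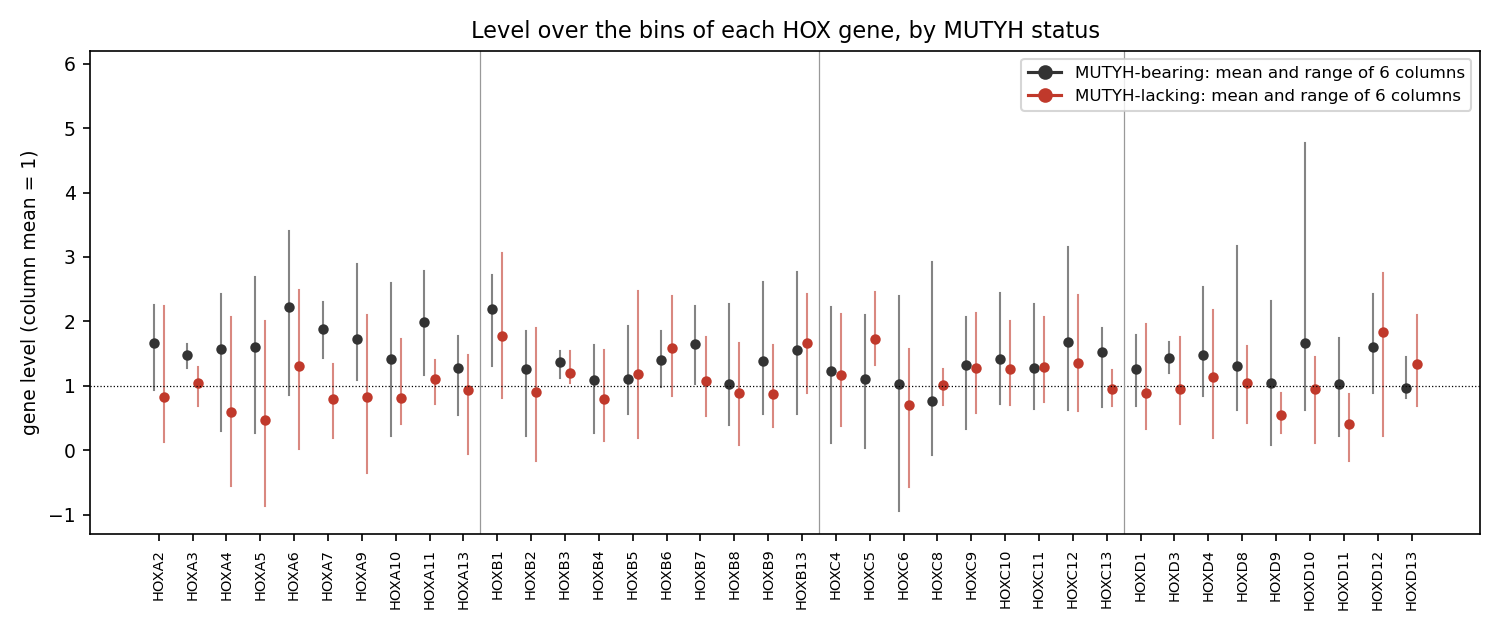
Level (y axis, genome average of a column = 1) of single HOX genes, ordered by cluster and paralog number. Points are means and lines the ranges of the 6 MUTYH-bearing and the 6 MUTYH-lacking columns. HOXA7 is the one gene shown whose ranges do not overlap (0.184 to 1.34 and 1.43 to 2.302).

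The 3 highest bins of each cluster reached levels of 2.37 to 2.78. In HOXA they included a bin in HOXA3 (chr7:27111001-27112000, 2.68) and a bin without a gene that is covered by a CpG island (2.37). In HOXB, the bin of the HOXB1 coding exon (chr17:48530001-48531000, 2.78) was followed by bins inside HOXB3 (2.63) and HOXB3 and HOXB6 (2.56). In HOXC, the highest were a bin in the non-coding gene FLJ12825 (2.68), a bin between genes (2.53) and a bin in the long records of HOXC4 and HOXC6 (2.41). In HOXD they were the bin of a coding exon of HOXD3 (chr2:176169001-176170000, 2.70), a bin in its antisense RNA HAGLR (2.53) and a bin between genes (2.46).

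Even such bins varied between columns. The HOXB1 exon bin was at 3.40, 2.99 and 2.73 in WT, 6.78, 0.632 and 2.47 in MUTYH-/, 2.301, 2.94 and 3.33 in OGG1-/ and 1.67, 2.89 and 1.29 in DKO. It was above 1 in 11 of the 12 columns, and the columns of every knockout overlapped with those of WT.

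The 3 lowest bins of HOXB all lay in LINC02086 between HOXB9 and HOXB13, with levels of -0.0941, 0.0915 and 0.242 and a GC content of 32.1 %, 30.3 % and 40.6 %. The lowest of HOXA were a bin in HOXA10 (0.178), a bin in HOXA3 with 2 G4 motifs (0.399) and the first bin of the range (0.520). In HOXC they lay in HOTAIR, a non-coding RNA transcribed antisense to HOXC genes (0.321), and in HOXC4 and HOXC6 (0.420 and 0.433). In HOXD they lay in HOXD3 (0.128), between genes (0.405) and over a coding exon of HOXD11 (0.411). The HOXD11 bin holds the motifs shown above at a GC content of 62.2 %. Its values were 0.0902, 1.24 and -0.151 in WT, 2.04, -0.912 and 0.286 in MUTYH-/, 1.72, 0.220 and 0.343 in OGG1-/ and 1.10, -1.28 and 0.238 in DKO, so that columns of every genotype lay on either side of 0.5.

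CpG island bins of the clusters had a level of 1.36 ± 0.216 and the other HOX bins 1.31 ± 0.143. The difference was 0.0561 (exact sign-flip permutation p = 0.37, higher in 8 of 12 columns). It was 0.148 in WT and 0.180 in OGG1-/, 0.0387 in MUTYH-/ and -0.142 in DKO. All 3 DKO columns (-0.370, -0.00173 and -0.0544) were below all 3 WT columns (0.189, 0.222 and 0.0339), with a difference of -0.290 (exact permutation p = 0.1). For MUTYH-/ (-0.109, exact permutation p = 0.6) and OGG1-/ (0.0316, exact permutation p = 0.9) the columns overlapped with WT. The scale decided the direction of the difference between island and other bins. Relative to genome bins of the same GC content it was -0.228 (exact permutation p = 0.00244), and as a ratio of OG to input reads 0.0668 (exact permutation p = 0.00293).

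Bins with a G4 motif had a level of 1.33 ± 0.183 and bins without one 1.34 ± 0.149, although their GC content differed (54.9 % and 48.0 %). Among bins with a CpG island, those with a motif were at 1.30 ± 0.212 and those without at 1.44 ± 0.243. Among the other bins the order was the opposite, with 1.40 ± 0.162 with a motif and 1.27 ± 0.150 without. The ratio of OG to input reads was 1.107 ± 0.0443 with a motif and 1.066 ± 0.0356 without, over all HOX bins. Relative to genome bins of the same GC content the order was the reverse, with -0.246 with a motif and -0.0235 without. These are descriptions over 12 columns that were not tested.

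The lower level at HOXA in MUTYH-lacking columns was present in its 79 CpG island bins (1.24 against 1.71, a difference of -0.477, exact permutation p = 0.005) and smaller in the other bins (1.08 against 1.37, a difference of -0.293, exact permutation p = 0.065). In HOXD it was -0.435 in island bins (exact permutation p = 0.055) and -0.0713 in the other bins (exact permutation p = 0.61). The split by islands was chosen after looking at the values.

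The mean level of GC-rich HOX bins was also lower in MUTYH-/ and DKO, which was not tested. In the 78 HOX bins with at least 60 % GC, the level was 1.57 ± 0.057 in WT, 1.57 ± 0.212 in OGG1-/, 1.08 ± 0.303 in MUTYH-/ and 0.994 ± 0.371 in DKO. Over all genome bins of that class it was 1.66 ± 0.049, 1.73 ± 0.083, 1.48 ± 0.309 and 1.26 ± 0.436 in the same order. There the columns of MUTYH-/ (1.179 to 1.797) and DKO (0.786 to 1.645) overlapped with those of WT (1.601 to 1.697). Input reads of these HOX bins, relative to their column, were 0.909 in WT, 0.702 in OGG1-/, 0.664 in MUTYH-/ and 0.661 in DKO. In the 232 HOX bins with 40 to 50 % GC, the levels were 1.39 ± 0.078 in WT, 1.43 ± 0.069 in OGG1-/, 1.19 ± 0.141 in MUTYH-/ and 1.33 ± 0.093 in DKO. The part of input depth in the HOXA difference beyond the 2 scales given above was not tested.

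**Figure D5:**
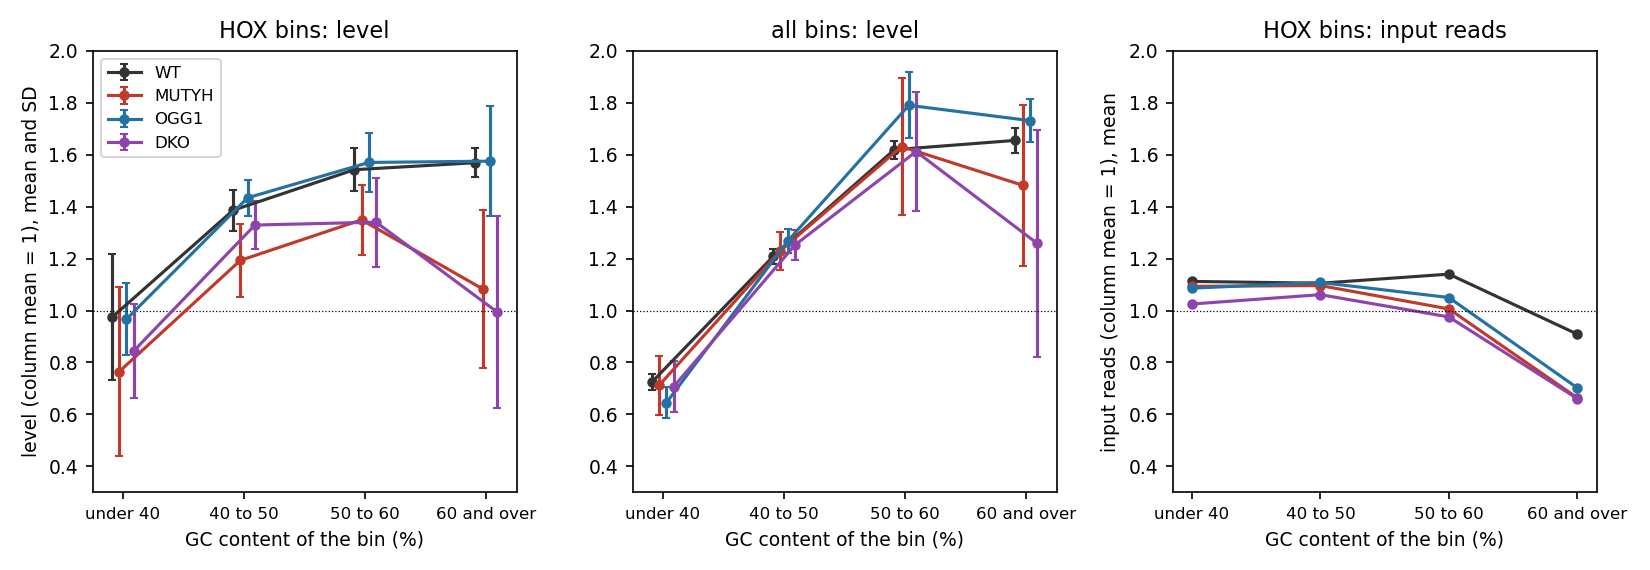
Level of the HOX bins (left) and of all bins (middle) and input reads of the HOX bins (right) by GC content of the bin (x axis, %), each with the column average at 1. Points are genotype means of 3 columns and bars on the levels are 1 SD. In HOX bins of 60 % GC and over, WT and OGG1-/ lie at 1.57 while MUTYH-/ and DKO lie at 1.08 and 0.994.

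OG-enriched bins (OG-EBs) were ranked here by the level and had to reach the 95th percentile of their column in 2 or more of the 3 columns of a genotype. The study's own OG-EBs rest on the log2 ratio of OG to input and on both technical replicates, unlike the bins counted here. Among the 580 HOX bins there were 11 in WT and 11 in OGG1-/ (1.90 % each), 8 in MUTYH-/ (1.38 %) and 6 in DKO (1.03 %). Over all bins the shares were 1.34 % in WT and 1.54 % in OGG1-/, 1.33 % in MUTYH-/ and 1.3 % in DKO. The order of the genotypes depended on the scale. When OG reads were divided by input reads, WT had 7 OG-EBs and each knockout 11. With genome bins of the same GC content subtracted, WT and MUTYH-/ had 5 each, OGG1-/ had 1 and DKO had 2. Of the 35 HOX bins that were an OG-EB at all, 34 were one in a single genotype. The remaining bin, inside HOXB3 and HOXB6 (chr17:48599001-48600000), was an OG-EB in WT and MUTYH-/. No HOX bin was an OG-EB in 3 or 4 genotypes. Sharing between genotypes was not counted over all bins, so these counts show no trait of the HOX bins.

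OG-differentially enriched regions (OG-DERs) were bins whose log2(value + 1), with values below 0 set to 0, changed by more than 0.5 with a limma p not above 0.01. In MUTYH-/ there were 3 HOX bins with gain and 3 with loss, where all bins had 0.3 % gain and 0.322 % loss. In OGG1-/ there were 1 gain and 2 losses (all bins 0.299 % and 0.256 %), and in DKO 1 gain and 3 losses (all bins 0.296 % and 0.312 %). None of the 580 bins passed a Benjamini-Hochberg adjusted p under 0.05 over all bins in limma. At an unadjusted limma p under 0.05 MUTYH-/ had 29 HOX bins, OGG1-/ 17 and DKO 33 (all bins 4.39 %, 4.1 % and 4.31 %). Of these, 21, 4 and 18 were lower than WT, where the lower bins made up 2.27 %, 2 % and 2.18 % of all bins. The median log2 fold change of the HOX bins was -0.34 (MUTYH-/), 0.01 (OGG1-/) and -0.20 (DKO). Over all bins it was -0.02, 0.00 and 0.00. Leaving out 1 column of each genotype together moved these medians. Without the columns numbered 3, the median of MUTYH-/ was -0.17, with 16 bins higher and 15 lower at an unadjusted limma p under 0.05, and that of OGG1-/ 0.17. Without the columns numbered 1, the medians of OGG1-/ and DKO were -0.03 and -0.05. With unscaled columns the medians were -0.19, 0.25 and 0.04, where those of all bins were 0.12, 0.21 and 0.21.

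The HOXD3 exon bin was the loss of MUTYH-/ with the highest level in WT. It was at 4.49, 4.78 and 3.64 in WT and at 0.0566, 0.540 and 2.37 in MUTYH-/, with no overlap (log2 fold change -2.77 ± 0.96 SE, limma adjusted p = 0.985). In OGG1-/ it was at 4.11, 2.38 and 0.496 and in DKO at 2.72, 1.63 and 5.20, which overlapped with WT. HOXD3 is an anterior HOXD gene that acts in the neck vertebrae.

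The bin of HOXB3 with the 4 G4 motifs (chr17:48555001-48556000) was another loss in MUTYH-/, from a lower level in WT. It was at 1.67, 1.62 and 1.98 in WT and at -0.831, -0.356 and -0.490 in MUTYH-/ (log2 fold change -4.03 ± 1.52 SE, limma adjusted p = 0.985). The DKO columns (0.763, 1.73 and 2.49) spanned the WT range. The third loss lay in HOXA3 (chr7:27133001-27134000, log2 fold change -4.01, limma adjusted p = 0.985).

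The gains in MUTYH-/ were all in HOXB: in the bin at the end of HOXB6 (chr17:48595001-48596000), in the long record of HOXB7 with HOXB-AS4 (chr17:48631001-48632000) and in LINC02086 with LINC03057 (chr17:48647001-48648000). Their log2 fold changes were 3.98, 3.84 and 4.19, from WT values at or below 0.397. The HOXB7 bin was at -1.18, -1.305 and -0.271 in WT, 4.21, 1.25 and 0.677 in MUTYH-/, 1.78, 1.62 and 2.40 in OGG1-/ and 2.91, 0.585 and 0.770 in DKO. It was the one gain of OGG1-/ as well (log2 fold change 4.13 ± 1.47 SE, limma adjusted p = 0.998), against the same WT columns.

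The losses of OGG1-/ lay in HOXA3 (chr7:27137001-27138000, log2 fold change -4.45 ± 1.54 SE) and in the bin of HOXB3 and HOXB6 that was an OG-EB in WT (log2 fold change -2.61 ± 0.98 SE, limma adjusted p = 0.998 for both). The DKO losses lay in LINC02086 (chr17:48699001-48700000, log2 fold change -4.32 ± 1.34 SE), in HOXC13 (chr12:53943001-53944000, log2 fold change -3.76 ± 1.46 SE), and in the long record of HOXD10 (chr2:176112001-176113000, log2 fold change -2.96 ± 1.07 SE). The LINC02086 bin was at 2.70, 4.06 and 2.798 in WT and at 0.222, -0.640 and -0.779 in DKO. The DKO gain lay in the long record of HOXB2 (chr17:48540001-48541000, log2 fold change 4.26 ± 1.505 SE, limma adjusted p = 0.99 as for the 3 losses). In limma the spread of single bins was replaced by a trend over all bins, so these p-values do not use the spread of the bin itself.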

How the data were processed

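OG and input DNA of HAP1 cells were sequenced, with DNA extracted under antioxidants. Per the labels and the study's methods, the authors trimmed reads with cutadapt 2.8, checked them with FastQC 0.11.9, mapped them to GRCh38 with Bowtie2 2.3.5.1, used SAMtools to mark duplicate reads, and counted with bedtools in 1000 bp bins on chromosomes 1 to 22 and X. They removed blacklisted bins (the methods also name incomplete bins, but the table keeps a shorter last bin on 5 chromosomes), scaled the input by SES (a factor taken from bins without enrichment) and subtracted it, which gives the deposited score. A subtraction grows with read number and keeps GC-dependent differences between OG and input libraries. The authors' edgeR 3.42.4 calls were not used, because the score is not a raw count.

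Each column was divided by its mean over all bins. OG reads and input reads, the latter as 2 terms with a fitted factor each, were solved as whole numbers from the score (at most 8 bins per column unsolved, simulated reads returned in 100 % of 100000 bins). What the 2 terms stand for is not given in the labels. GC strata (20) subtract the mean of genome bins of like GC. CpG islands (200 bp, 50 % GC, observed to expected CpG of 0.6) and G4 motifs were found in GRCh38, and genes came from GENCODE release 44. Clusters were compared by exact two-sided permutation and sign-flip tests, and adjustment ran over all genome windows of the same length in place of the planned adjustment over the comparisons. Bins were tested by limma 3.58.1 (trend, prior degrees of freedom infinite, value above 0 in at least 3 columns). In simulated reads of MUTYH-/ against WT, 65 % of 2-fold rises and 42 % of 2-fold falls in OG reads were recovered (200 changed and 2793486 unchanged bins). The change was put on OG reads before input was subtracted, so it was larger than 2-fold in the score. The simulation held counting error only, so these shares do not give the recovery of 2-fold changes of the score in the real columns. Python 3.11.15, NumPy 2.4.6, pandas 2.3.3, SciPy 1.17.1, matplotlib 3.10.9 and R 4.3.3 were used. Intervals and errors of counts cover counting error only.

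The ranges, gene lists and tests were chosen with earlier results of these data known. Named were the highest and lowest gene and the 3 highest and 3 lowest bins of each cluster, all bins called OG-DER, and OG-EBs of all 4 genotypes (none). The sample libraries are labelled by clone and experiment, but the table's columns are not tied to them, and no clone, batch or day was used as a factor. One gene and its bins are counted in the totals but are not reported here.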

Additional observations from a re-analysis of the deposited data

How the results depend on the processing

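Of 306 alternatives planned for 47 results, 251 kept direction and side of the threshold. In comparisons of 3 against 3 columns the exact permutation p cannot go below 0.1, so there only the direction could change. The other alternatives are given here, and their cause was not tested. Beside their flanks, with GC strata HOXA was at -0.127, HOXD at -0.131, HOXB at -0.240 and HOXC at -0.247. HOXB was at -0.0994 with flanks of 1000 kb, -0.0506 with values below 0 set to 0 (both of which gained the call) and 0.0055 on the ratio, and HOXC at 0.0447 with flanks of 1000 kb and 0.0368 on the ratio (exact permutation p = 0.0303). By OGG1 status, HOXA was at -0.0257 scaled by the median, -0.0217 with values below 0 set to 0, -0.0157 by the median over bins and -0.0253 with GC strata, HOXB at -0.00383 and HOXC at -0.00194 with GC strata. By MUTYH status, HOXD was at -0.201 with GC strata. Alternatives chosen after seeing the data gave -0.435 (island bins) and -0.0713 (other bins) in HOXD and -0.293 (other bins) in HOXA.

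Against WT, HOXA in OGG1-/ was at 0.0400 by the median over bins and 0.0133 on the ratio, HOXB in DKO at 0.0311 and 0.000671, and with GC strata HOXB in OGG1-/ was at -0.0355 and HOXC in OGG1-/ at -0.0149. Minus flanks, HOXA in OGG1-/ was at 0.0361 by the median, HOXB in OGG1-/ at 0.0144 with flanks of 250 kb and 0.00722 by the median, HOXB in DKO at 0.0344 by the median and 0.00135 on the ratio, and HOXC in OGG1-/ at -0.00479 with values below 0 set to 0 and -0.00252 with GC strata. Island minus other bins was -0.228 with GC strata and 0.0668 on the ratio. Its difference from WT in OGG1-/ was -0.00398 with values below 0 set to 0, -0.0307 with GC strata and -0.0727 with stricter islands, and in MUTYH-/ 0.00218 on the ratio.

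OG-EBs of WT, MUTYH-/, OGG1-/ and DKO numbered 0 each at the 99th percentile and 2, 0, 1 and 0 with 3 of 3 columns. With GC strata they numbered 5, 5, 1 and 2, and on the ratio 7, 11, 11 and 11. OG-DERs numbered 0 in each knockout at an adjusted p in limma under 0.05, 3 in MUTYH-/ with a pseudocount of 5, and 7 without the filter and 2 without scaling in DKO.

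No paired analysis was possible because the column numbers are not tied to clones or experiments. With 1 column of each genotype left out, 6 against 6 becomes 4 against 4 and its exact permutation p cannot go below 0.0556. With single columns left out, chosen after seeing the data, HOXA lay at -0.461 to -0.352 and HOXD at -0.346 to -0.230 by MUTYH status. With 1 of each left out, HOXA lay by MUTYH status at -0.448 to -0.342, HOXB at -0.166 to -0.0418, HOXC at -0.295 to -0.122 and HOXD at -0.302 to -0.254. By OGG1 status the ranges were -0.0706 to 0.0898, -0.00364 to 0.0914, -0.0412 to 0.106 and 0.0621 to 0.0685. Minus flanks they were 0.302 to 0.401, -0.0742 to -0.0229, -0.0637 to 0.0269 and 0.344 to 0.438.

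Against WT, HOXA ranged from -0.485 to -0.387 in MUTYH-/, -0.0537 to 0.0266 in OGG1-/ and -0.518 to -0.252 in DKO. HOXB ranged from -0.196 to 0.0494, 0.0286 to 0.0875 and -0.135 to -0.042, HOXC from -0.269 to 0.0740, -0.0154 to 0.259 and -0.337 to -0.0377, and HOXD from -0.568 to -0.281, -0.213 to 0.0836 and -0.239 to -0.185. Minus flanks, HOXB in OGG1-/ ranged from -0.175 to 0.0449, HOXC from -0.261 to 0.0478 in MUTYH-/ and -0.0238 to 0.181 in OGG1-/, and HOXD in OGG1-/ from -0.158 to 0.0363. Island minus other bins ranged from 0.00167 to 0.0923, and relative to WT from -0.274 to 0.027 in MUTYH-/ and -0.149 to 0.149 in OGG1-/. OG-EBs numbered 3 to 7, 1 to 4, 4 to 5 and 0 to 3, and OG-DERs 3 to 4 in MUTYH-/, 0 to 5 in OGG1-/ and 2 to 5 in DKO. A bin held on average 21 to 40.2 OG reads, and whether depth sets the spread of single bins was not tested.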
